A study of Mus musculus with 17 samples.

Results

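Transcripts of 10 genes that make or remove reactive oxygen and nitrogen species in the gut epithelium were followed across bulk RNA sequencing of 17 mouse libraries in 7 groups. The genes are Nox1, Noxo1, Duox2, Duoxa2, Nos2, Gpx1, Gpx2, Cat, Sod1 and Sod2, taken by name, and all 10 were found among the 33840 genes of the intestinal files and the 24594 identifiers of the files labelled liver. Per the labels, every mouse was wild type. Small intestine crypts and intestinal epithelial cells (IEC, the cells lining the gut) were collected after hepatectomy (part of the liver is cut out) or after sham surgery, with 2 libraries in each of the 4 groups. The other 9 libraries are labelled liver with DSS, dextran sulfate sodium, at day 0, 10 or 20, 3 libraries for each. DSS in drinking water is a common way to injure the mouse colon, but the labels give neither its dose nor how long it was given, and they give no age or sex. Nor do the labels say whether each library is its own animal. The p-values therefore speak of the spread among these libraries alone, and that spread may be technical.

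NADPH oxidases move electrons from NADPH across a membrane onto oxygen. Nox1 releases superoxide and works with the membrane partner p22phox (Cyba), the organiser Noxo1, the activator Noxa1 and Rac, whereas Duox2 releases hydrogen peroxide and needs its maturation factor Duoxa2 to leave the endoplasmic reticulum. Superoxide dismutases turn superoxide into hydrogen peroxide, which catalase and the glutathione peroxidases remove. In the gut, Nox1 and Duox2 are known for oxidant release at the epithelial surface in contact with microbes, and Gpx2 is known as the gastrointestinal glutathione peroxidase.

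On mm10 with GENCODE vM21 ends, Duox2 (chr2:122279247-122298449, minus strand) and Duoxa2 (chr2:122298900-122302885, plus strand) lie head to head with 450 bases between them. Nox1 lies at chrX:134086421-134221956 on the minus strand. RefSeq promoter windows of GRCm38.p6 were matched for 9 of the 10 genes, each of 300 bases, with the Nos2 window not among them. The windows of Duox2 and Duoxa2 are shown because both of these neighbours fell after hepatectomy in crypts and in IEC. That of Nox1 is shown because it had the largest fall after hepatectomy on the log2 scale. Each sequence is written 5′ to 3′ on the strand of its gene, and the windows cover chrX:134111805-134112104 for Nox1, chr2:122298178-122298477 for Duox2 and chr2:122298650-122298949 for Duoxa2. The RefSeq start behind the Nox1 window lies 110102 bases inside the GENCODE gene span and that of Duox2 222 bases inside it, so these windows do not sit at the gene ends given above, whereas that of Duoxa2 does. Capitals mark the match to the loose NF-kB letters given below in Nox1 and the TATA box in Duoxa2.
Nox1: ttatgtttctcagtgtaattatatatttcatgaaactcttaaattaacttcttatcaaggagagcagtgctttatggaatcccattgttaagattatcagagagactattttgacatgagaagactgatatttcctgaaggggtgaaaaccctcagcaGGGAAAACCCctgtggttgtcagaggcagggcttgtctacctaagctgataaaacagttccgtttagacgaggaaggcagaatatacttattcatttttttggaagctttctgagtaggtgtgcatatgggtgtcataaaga
Duox2: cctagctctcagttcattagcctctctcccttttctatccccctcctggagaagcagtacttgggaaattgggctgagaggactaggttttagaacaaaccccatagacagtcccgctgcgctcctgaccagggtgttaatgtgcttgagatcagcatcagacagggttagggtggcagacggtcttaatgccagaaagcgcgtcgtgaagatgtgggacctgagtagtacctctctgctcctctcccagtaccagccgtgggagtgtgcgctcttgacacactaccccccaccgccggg
Duoxa2: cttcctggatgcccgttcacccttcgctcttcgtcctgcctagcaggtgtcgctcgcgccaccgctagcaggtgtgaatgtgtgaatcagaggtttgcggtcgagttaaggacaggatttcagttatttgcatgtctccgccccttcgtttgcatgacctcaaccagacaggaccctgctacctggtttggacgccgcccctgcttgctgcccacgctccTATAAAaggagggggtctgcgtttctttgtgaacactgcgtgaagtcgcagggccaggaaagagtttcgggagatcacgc
Both strands of all 32851 windows were searched for the antioxidant response element core TGACNNNGC, the STAT element TTCNNNGAA and the TATA box TATAAA. The NF-kB element was searched likewise in a loose form, of the length marked in Nox1. That form begins GGGA and ends CC, with any bases between. This loose NF-kB form was matched in 20.7% of all windows and in those of Nox1, Gpx1 and Cat. TATAAA was matched in 13.6% of all windows and in those of Duoxa2, at base -30 from the start, and Sod1. The antioxidant response element core, present in 12.4% of windows, was matched in Sod1 alone among these genes, and the STAT element, present in 8.3%, in Sod2 alone. The Noxo1, Duox2 and Gpx2 windows held no match to these letters. A match describes the letters in a window and is not a binding site.

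Libraries held 26609686 to 43580020 counts in the intestine and 12742629 to 42669857 counts under the liver label. Values below are TMM-normalised counts per 1000000 (CPM). Those of marker genes, of Xist and the Y-linked genes and of olfactory receptor genes, single or summed, are instead CPM of all counts, without TMM. Differences are log2 fold changes with their SE. Each adjusted p is that of edgeR's quasi-likelihood test with Benjamini-Hochberg adjustment over all genes of a table. Overlap between groups is stated gene by gene, and the share of all genes without overlap was not counted. In CPM of all counts, Alb, the hepatocyte albumin gene, ranged from 309 to 487 at day 0, from 438 to 1897 at day 10 and from 34808 to 37893 at day 20, while Olfm4, an intestinal crypt gene, ranged from 7996 to 8596, from 2691 to 7826 and from 26.9 to 40.6. The day 0 and day 10 libraries therefore go against their liver label, and they are called here by label only. Day 10 replicate 3 was the shallowest library. It also stood apart from the other day 10 libraries in summed olfactory receptor counts, with 1091 CPM of all counts against 386 and 441. Its TMM factor was 1.64 against 1.16 and 1.03, so that gap is smaller after TMM. Sham and hepatectomy libraries carry separate running-number series in the deposited file names, so that series and hepatectomy cannot be told apart.

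After hepatectomy Nox1, Duox2, Duoxa2, Nos2 and Gpx2 fell in both crypts and IEC and Cat and Sod1 rose in both. On the log2 scale each of these 7 changes was larger in IEC by the test of the difference. In mean CPM the fall of Nox1 was larger in crypts, from 22 to 8.03, than in IEC, from 6 to 0.714. In crypts 3 of the 10 genes rose, 5 fell and 2 were not called, where 19.2% of all 18207 tested genes rose and 18.3% fell (37.5% called in all). In IEC 2 rose, 6 fell and 2 were not called, where 19.5% of all genes rose and 18.3% fell (37.8% in all). Without sham crypts replicate 1, which leaves 1 library in that group, the crypt changes of Duox2, Duoxa2 and Gpx2 were not called. The median log2 fold change of the 10 genes was -0.13 in crypts and -0.73 in IEC, with medians over all genes of 0.01 and 0.02. In bulk libraries fewer cells of a type and less RNA per cell cannot be told apart.

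**Figure D1:**
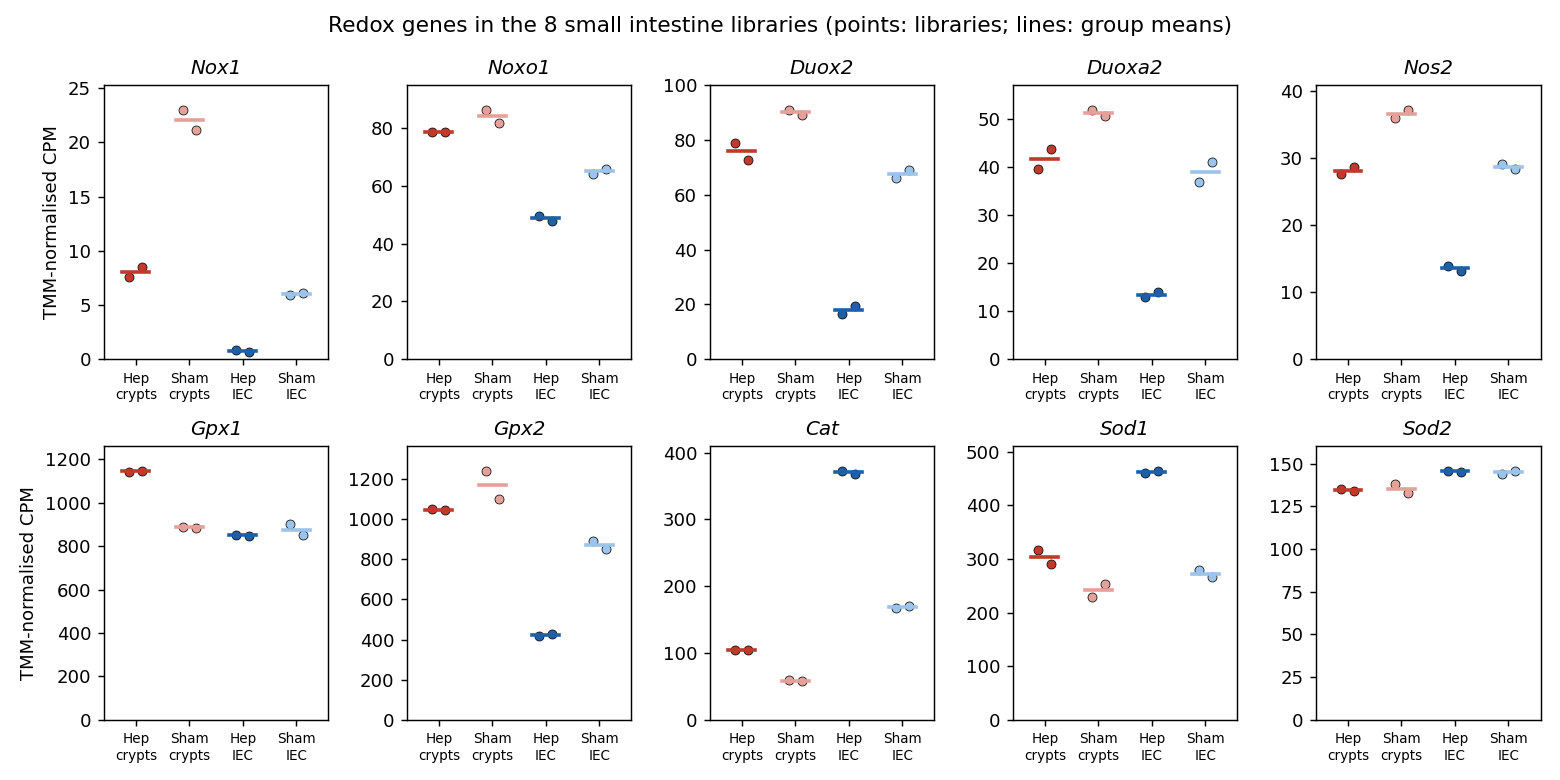
Level of each of the 10 genes in the 8 small intestine libraries, as TMM-normalised CPM on a linear axis from 0, with 1 point per library and a line at the mean of each group. Nox1 was at 0.607 to 0.821 CPM in IEC after hepatectomy and 5.9 to 6.1 CPM in sham IEC, while Cat was highest in IEC after hepatectomy and Sod2 was nearly level.

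Nox1, the catalytic subunit of the superoxide-producing oxidase, had 7.61 and 8.46 CPM in crypts after hepatectomy, against 23 and 21.1 CPM in sham crypts. Hepatectomy IEC held 0.821 and 0.607 CPM of Nox1, from 25 and 17 counts, against 5.9 and 6.1 CPM in sham IEC. Both hepatectomy groups lay wholly below their sham groups. The fold change was 0.366 in crypts (log2 -1.45 ± 0.1, adjusted p = 4.5e-07) and 0.12 in IEC (log2 -3.06 ± 0.18, adjusted p = 7.3e-08). Some exons of Nox1 overlap those of Cstf2, a polyadenylation factor gene on the other strand, and the strand of counting is not given, so reads there could count for either gene. Cstf2 itself had log2 fold changes of -0.53 ± 0.068 in crypts and -0.44 ± 0.072 in IEC.

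Noxo1, which organises the Nox1 complex at the membrane, fell in IEC, by a smaller fold than Nox1, and missed the threshold in crypts. It had 78.6 and 78.8 CPM in hepatectomy crypts, against 86.3 and 81.8 CPM in sham crypts (log2 -0.09 ± 0.052, adjusted p = 0.18). In IEC it had 49.7 and 47.9 CPM after hepatectomy, against 64.2 and 65.7 CPM in sham (log2 -0.41 ± 0.055, adjusted p = 7.7e-05). The groups did not overlap in either preparation. On total counts alone, which moved the median of all genes to -0.31, the crypt value was -0.42 (adjusted p = 0.00013). Noxo1 (chr17:24696234-24700529, plus strand) overlaps exons of Tbl3, a ribosome biogenesis gene on the other strand that averaged 67.1 CPM in hepatectomy IEC and 72.5 CPM in sham IEC, and its own counts are uncertain for that reason.

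Among the partners of Nox1, the activator Noxa1 had 34.5 and 38.5 CPM in hepatectomy crypts against 49.8 and 46.1 CPM in sham crypts, and 14.6 and 15.6 CPM in hepatectomy IEC against 31.4 and 31.8 CPM in sham IEC. Noxa1 fell in both, with a log2 fold change of -0.39 ± 0.071 in crypts (adjusted p = 0.0011) and -1.07 ± 0.081 in IEC (adjusted p = 6e-07). Cyba, the membrane partner, averaged 135 ± 3.4 CPM in hepatectomy crypts and 119 ± 0.58 CPM in sham crypts (SD, n = 2 each). In IEC Cyba averaged 68.5 ± 4.5 CPM after hepatectomy and 116 ± 6.2 CPM in sham (SD, n = 2 each). It thus rose in crypts (log2 0.18 ± 0.057, adjusted p = 0.026) and fell in IEC (log2 -0.76 ± 0.06, adjusted p = 8.1e-07). Cybb, the phagocyte oxidase subunit, was at or below 0.734 CPM on average in all 4 groups.

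Duox2, the hydrogen peroxide-producing dual oxidase, had 78.9 and 72.7 CPM in hepatectomy crypts, against 91 and 89.3 CPM in sham crypts. Hepatectomy IEC held 16.6 and 19.2 CPM, against 66.2 and 69.1 CPM in sham IEC. Every hepatectomy library lay below every sham library of its preparation, by a small step in crypts and a large one in IEC. The fold change was 0.841 in crypts (log2 -0.25 ± 0.066, adjusted p = 0.011) and 0.264 in IEC (log2 -1.92 ± 0.076, adjusted p = 2e-09). The crypt call was lost without sham crypts replicate 1 (adjusted p = 0.066) or hepatectomy crypts replicate 2 (adjusted p = 0.083).

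Duoxa2, the partner that Duox2 needs for export, fell in both preparations, as Duox2 did. It had 39.5 and 43.7 CPM in hepatectomy crypts, against 51.8 and 50.6 CPM in sham crypts (log2 -0.30 ± 0.072, adjusted p = 0.0067). In IEC it had 12.8 and 13.9 CPM after hepatectomy, against 36.9 and 41 CPM in sham (log2 -1.55 ± 0.083, adjusted p = 3.2e-08). Groups did not overlap in either preparation. The crypt call was lost without sham crypts replicate 1 (adjusted p = 0.052) or hepatectomy crypts replicate 1 (adjusted p = 0.065), and part of its exons overlap those of Duoxa1. Per kb of merged exon, Duox2 stood at 0.305 and 0.325 of the Duoxa2 level in hepatectomy IEC, against 0.421 and 0.397 in sham IEC, so both transcripts fell but Duox2 lay lower relative to its partner in each hepatectomy IEC library.

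Nos2, the inducible nitric oxide synthase at chr11:78920787-78960254, had 27.6 and 28.6 CPM in hepatectomy crypts, against 36 and 37.2 CPM in sham crypts. Its level in hepatectomy IEC was 13.9 and 13.2 CPM, against 29.1 and 28.3 CPM in sham IEC. The groups did not overlap. Nos2 fell in both, with a log2 fold change of -0.38 ± 0.064 in crypts (adjusted p = 0.0006) and -1.08 ± 0.072 in IEC (adjusted p = 2e-07).

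Gpx2, the gastrointestinal glutathione peroxidase at chr12:76792333-76795554, had 1049 and 1047 CPM in hepatectomy crypts, against 1242 and 1099 CPM in sham crypts. The IEC values of Gpx2 were 416 and 426 CPM after hepatectomy, against 889 and 853 CPM in sham. The IEC groups were far apart (fold change 0.484, log2 -1.05 ± 0.054, adjusted p = 2.1e-08). The crypt groups were close (fold change 0.896, log2 -0.16 ± 0.053, adjusted p = 0.033), and that call was lost under 7 of 15 alternatives, among them DESeq2 (adjusted p = 0.1) and leaving out sham crypts replicate 1 (log2 -0.06, adjusted p = 0.39). A near-identical copy, Gpx2-ps1, took 7.61 to 21.1 CPM in the intestinal libraries, so Gpx2 counts carry that uncertainty.

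Gpx1, the ubiquitous glutathione peroxidase at chr9:108338903-108340343, had 1141 and 1148 CPM in hepatectomy crypts, against 889 and 883 CPM in sham crypts. It rose there by a fold of 1.29 (log2 0.37 ± 0.039, adjusted p = 1.9e-05), with no overlap. In IEC it had 852 and 848 CPM after hepatectomy, against 900 and 853 CPM in sham (log2 -0.04 ± 0.039, adjusted p = 0.41), with a 95% interval of -0.13 to 0.04. With libraries scaled by total counts alone the crypt difference was 0.05 (adjusted p = 0.55), and the IEC value -0.26 (adjusted p = 0.0023), while this scaling moved the medians of all genes to -0.31 and -0.19. Per kb of merged exon, Gpx2 was 0.412 and 0.408 of Gpx1 in hepatectomy crypts, against 0.624 and 0.557 in sham crypts. The same ratio was 0.218 and 0.224 in hepatectomy IEC, against 0.442 and 0.448 in sham IEC. It was thus lower in every hepatectomy library than in the sham libraries of its preparation.

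Cat, the peroxisomal catalase gene at chr2:103453849-103485160, had 104 CPM in both hepatectomy crypt libraries, against 59.1 and 58.4 CPM in sham crypts. Its level in hepatectomy IEC was 373 and 368 CPM, against 168 and 171 CPM in sham IEC. Cat rose by a fold of 1.76 in crypts (log2 0.82 ± 0.044, adjusted p = 5.3e-08) and 2.19 in IEC (log2 1.13 ± 0.043, adjusted p = 1.5e-09), the largest rise of the 10 genes in both preparations.

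Sod1, the cytosolic copper and zinc dismutase at chr16:90220754-90226329, had 316 and 291 CPM in hepatectomy crypts, against 229 and 254 CPM in sham crypts. In IEC it had 460 and 465 CPM after hepatectomy, against 279 and 266 CPM in sham. It rose without overlap by a fold of 1.26 in crypts (log2 0.33 ± 0.058, adjusted p = 0.00086) and 1.7 in IEC (log2 0.76 ± 0.058, adjusted p = 6.2e-07). On total counts alone the crypt difference was 0.01 (adjusted p = 0.94).

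Sod2, the mitochondrial manganese dismutase at chr17:13006846-13040063, had 135 and 134 CPM in hepatectomy crypts, against 138 and 133 CPM in sham crypts, and 146 and 145 CPM in hepatectomy IEC, against 144 and 146 CPM in sham IEC. The groups overlapped in both preparations. The 95% interval of its log2 fold change ran from -0.11 to 0.09 in crypts and from -0.09 to 0.11 in IEC. On total counts alone Sod2 was lower in both, by a log2 fold change of -0.33 in crypts (adjusted p = 0.0005) and -0.21 in IEC (adjusted p = 0.018), with the medians of all genes at -0.31 and -0.19.

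**Figure D2:**
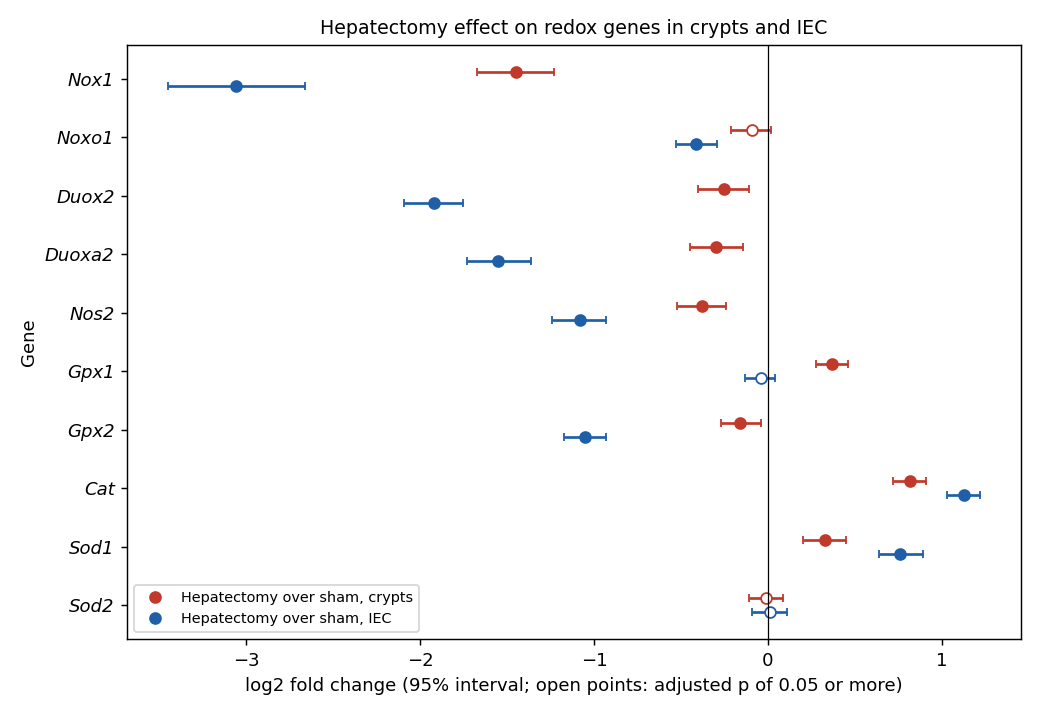
Log2 fold change of hepatectomy over sham for the 10 genes in crypts (red, upper of each pair) and IEC (blue, lower), with 95% intervals from the fit, where open points have an adjusted p of 0.05 or more. The IEC points of Nox1, Duox2, Duoxa2, Nos2 and Gpx2 lie at -1.05 or below, left of their crypt points, and Cat and Sod1 lie right of 0 in both preparations.

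The sizes of these changes differed between preparations. The difference of the hepatectomy effects, crypts minus IEC, was called for 9 of the 10 genes, where 19.2% of all genes were called (9.15% positive and 10.1% negative). It was positive for 7 genes, with 1.67 ± 0.1 for Duox2 (adjusted p = 6.1e-07), 1.60 ± 0.22 for Nox1 (adjusted p = 0.00041) and 1.25 ± 0.11 for Duoxa2 (adjusted p = 1.5e-05) the largest on the log2 scale. It was negative for Cat (-0.31 ± 0.062, adjusted p = 0.0043) and Sod1 (-0.44 ± 0.082, adjusted p = 0.003), which rose more in IEC, and it missed the threshold for Sod2 (-0.02, 95% interval -0.16 to 0.12). The Cat difference missed the threshold without sham crypts replicate 1 (adjusted p = 0.051), and the Noxo1 difference of 0.32 ± 0.076 did so without sham crypts replicate 2 (adjusted p = 0.05) and on total counts alone (adjusted p = 0.17).

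Markers of other cells moved with the operation as well. Of all genes, 19.2% rose and 18.3% fell in crypts after hepatectomy, and 19.5% rose and 18.3% fell in IEC. Summed over 8 enterocyte markers, CPM of all counts were 10251 to 10452 in hepatectomy crypts against 4634 to 4968 in sham crypts, and 58364 to 62249 in hepatectomy IEC against 26010 to 26603 in sham IEC, and all 8 markers rose in both. The 8 crypt stem and Paneth markers summed to 1585 to 1588 against 3747 to 3799 in crypts, and to 2318 to 2346 against 4451 to 4636 in IEC, hepatectomy against sham. Of these 8, 0 rose and 7 fell in crypts, and 1 rose and 5 fell in IEC. The 10 macrophage and neutrophil markers summed to 36.8 to 37.3 against 69.8 to 72.5 in crypts and to 20.6 to 21.7 against 38.9 to 39.1 in IEC. Of the 7 tested, 0 rose and 4 fell in crypts, and 2 rose and 3 fell in IEC, where the members did not move one way. In crypts Cd14 averaged 24 CPM of all counts after hepatectomy and 42.8 in sham, and Itgam 8.94 and 16, which made up most of each sum. Csf1r averaged 0.528 and 0.946 there, and Cd68 0.384 and 0.288. In IEC the mean of Itgam was 1.71 CPM of all counts after hepatectomy and 9.7 in sham, and that of Cd14 4.58 and 12.7. Lyz2 had 5.03 and 3.74 and S100a8 0.573 and 0.129 in IEC. The macrophage marker Adgre1 was at or below 0.0886 CPM in each of these libraries. The 6 erythroid markers, which bear on Cat, Gpx1 and Sod1 because red cells hold these enzymes, summed to 12 to 14.5 against 36.4 to 41.3 in crypts and to 252 to 259 against 235 to 243 in IEC.

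Goblet cells, T and NK cells and dividing cells were represented as well. Their marker sums, and the olfactory receptor sums, are in CPM of all counts. The 7 goblet markers summed to 2389 to 2480 CPM in hepatectomy crypts against 6773 to 7235 in sham crypts, and all 7 fell there, whereas in IEC they summed to 6955 to 7026 against 6520 to 6817, with 3 higher and 2 lower. The difference of effects was called for all 7 of them, where 19.2% of all genes were called. The 7 T and NK cell markers summed to 33.9 to 34.6 CPM in hepatectomy crypts against 101 to 102 in sham crypts, and to 68.5 to 70.3 in hepatectomy IEC against 95.6 to 97.6 in sham IEC. Of these 7, 1 rose and 6 fell in crypts, and 0 rose and 4 fell in IEC. The 6 proliferation markers summed to 411 to 426 CPM against 751 to 791 in crypts and to 183 to 191 against 407 to 408 in IEC, hepatectomy against sham. Summed counts of 987 olfactory receptor genes, which the gut epithelium is not known for, were 149 and 154 CPM in hepatectomy crypts against 67.8 and 61.7 CPM in sham crypts, and 122 and 130 CPM in hepatectomy IEC against 68.3 and 78.7 CPM in sham IEC. The part of all these markers and of the olfactory receptor counts in the changes of the 10 genes was not tested.

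Crypts were set against IEC of the same operation. Among sham libraries 6 of the 10 genes were higher in crypts, 2 were lower and 2 were not called, where 19.3% of all genes were higher and 19.3% lower (38.6% called). After hepatectomy 7 were higher, 2 lower and 1 not called, where 26.3% of all genes were higher and 25.6% lower (51.9% called). The median log2 difference of the 10 genes was 0.36 in sham and 0.87 after hepatectomy, with medians over all genes of 0.02 and 0.01. These comparisons use the same libraries as the hepatectomy contrasts. All 8 enterocyte markers were lower in crypts in both comparisons, and all 6 proliferation markers were higher (median log2 0.56 in sham and 0.90 after hepatectomy). Of the 8 crypt stem and Paneth markers, 2 were higher and 4 lower in sham crypts than in sham IEC (median -0.33), and 2 higher and 5 lower after hepatectomy (median -1.00), so this list does not set the libraries labelled crypts above those labelled IEC. Goblet markers were 2 higher and 5 lower in sham (median -0.28) and 7 of 7 lower after hepatectomy (median -1.49). Of 4 tested erythroid markers 3 were lower in crypts in each comparison, with medians of -2.80 in sham and -4.31 after hepatectomy. The part of cell content in the differences was not tested.

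Nox1 had the steepest crypt bias, with 22 ± 1.4 CPM in sham crypts and 6 ± 0.14 CPM in sham IEC, a fold of 3.67 (log2 1.88 ± 0.11, adjusted p = 4.1e-08). After hepatectomy it averaged 8.03 ± 0.6 CPM in crypts and 0.714 ± 0.15 CPM in IEC (SD, n = 2 each), a fold of 11.2 (log2 3.48 ± 0.17, adjusted p = 4.3e-09). Duox2, Duoxa2, Nos2 and Gpx2 were higher in sham crypts by log2 0.35 to 0.43, and after hepatectomy Duox2 was higher in crypts by 2.08 ± 0.075 (adjusted p = 2.5e-10). Noxo1 was higher in sham crypts by 0.37 ± 0.053, close to the 0.36 ± 0.062 of Tbl3, with which it shares exon sequence on the other strand.

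Cat ran the other way, with 58.8 ± 0.49 CPM in sham crypts and 169 ± 1.6 CPM in sham IEC (SD, n = 2 each), a fold of 0.347 (log2 -1.53 ± 0.045, adjusted p = 6.9e-11). After hepatectomy its fold in crypts over IEC was 0.28 (log2 -1.84 ± 0.044, adjusted p = 6.6e-12). Sod1 was lower in sham crypts by log2 -0.17 ± 0.058 (adjusted p = 0.033), a value that turned to 0.18 (adjusted p = 0.025) on total counts alone and was lost without sham IEC replicate 1 (adjusted p = 0.21), sham IEC replicate 2 (adjusted p = 0.061) or sham crypts replicate 1 (adjusted p = 0.24). After hepatectomy the Sod1 difference was -0.61 ± 0.058 (adjusted p = 2.3e-06). Gpx1 overlapped between sham crypts and sham IEC (log2 0.02, 95% interval -0.07 to 0.10, but 0.37 with adjusted p = 7.6e-05 on total counts alone), and after hepatectomy it was higher in crypts by 0.43 ± 0.039 (adjusted p = 1.7e-06). Sod2 was not called in sham (log2 -0.10, adjusted p = 0.12) or after hepatectomy (log2 -0.11, adjusted p = 0.055), and on total counts alone, which moved the median of all genes to 0.37, the sham value turned to 0.26 (adjusted p = 0.0029). The same scaling gave 0.14 after hepatectomy (adjusted p = 0.09), with the median of all genes at 0.26. With the stricter filter Sod2 was called lower in crypts in sham (-0.11, adjusted p = 0.049) and after hepatectomy (-0.17, adjusted p = 0.0042), and with only the groups compared it was called in sham (-0.13, adjusted p = 0.03).

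Levels were ordered between genes as CPM per kb of merged exon, where the SD is over 2 libraries. Merged exon counts every annotated exon of a gene, which can be more than the transcript present holds. The order, and the ratios per kb between genes, depend on that length. It was 3.22 kb for Gpx2, 3.97 kb for Sod1, 10 kb for Sod2 and 2.61 kb for Cat. In CPM alone, hepatectomy IEC averaged 463 for Sod1, 421 for Gpx2 and 370 for Cat. In hepatectomy crypts Gpx1 led with 794 ± 3.6, followed by Gpx2 with 325 ± 0.48, Sod1 with 76.4 ± 4.6 and Cat with 39.6 ± 0.021, then Noxo1 with 26.1 ± 0.044 and Duoxa2 with 26.1 ± 1.9, which do not differ beyond their spread. In sham crypts the order began with Gpx1 at 615 ± 3.3, Gpx2 at 363 ± 31 and Sod1 at 60.9 ± 4.5, and Cat at 22.5 ± 0.19 stood below Duoxa2 and Noxo1. In hepatectomy IEC Cat at 142 ± 1.3 stood second to Gpx1 at 590 ± 2 and above Gpx2 at 131 ± 2.2, whereas in sham IEC it stood after Gpx2 and Sod1 at 64.8 ± 0.62, the Sod1 level being 68.6 ± 2.2. Nox1 was the lowest of the 10 in all 4 intestinal groups, from 0.216 ± 0.046 in hepatectomy IEC to 6.67 ± 0.41 in sham crypts.

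In the libraries labelled liver, day 20 differed from the earlier days in all 10 genes, while day 10 differed from day 0 in 4. At day 10 against day 0, 0 of the 10 genes rose, 4 fell and 6 were not called, where 24.7% of all 16694 tested genes rose and 18.8% fell (43.6% called). At day 20 against day 0, 4 rose and 6 fell, where 33.3% of all genes rose and 38.1% fell (71.4% called). At day 20 against day 10 the counts were again 4 and 6, with 30.8% and 40.3% of all genes (71.1% called). The 3 comparisons share libraries. The median log2 fold change of the 10 genes was -0.52, -4.36 and -3.23, with medians over all genes of 0.10, -0.16 and -0.21, in that order of comparisons.

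**Figure D3:**
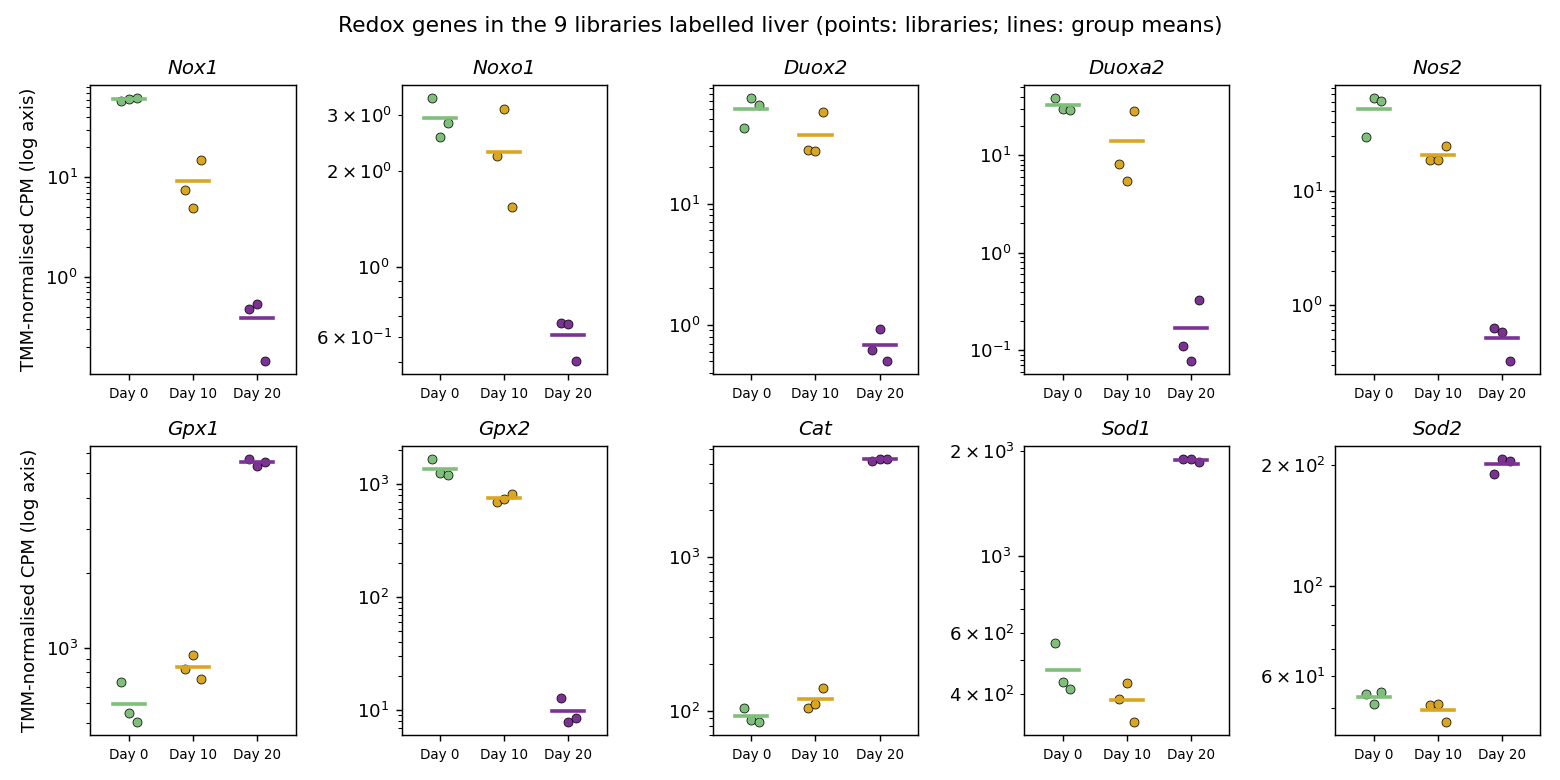
Level of each of the 10 genes in the 9 libraries labelled liver, as TMM-normalised CPM on a log axis, by day, with 1 point per library and a line at the group mean. The 3 day 20 libraries stand apart from all others in every panel, with Gpx1, Cat, Sod1 and Sod2 higher and the other 6 genes lower. Of all genes, 71.4% were called at day 20 against day 0 and 71.1% against day 10.

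Nox1 had 58.4, 60.4 and 62.1 CPM at day 0, 7.51, 4.89 and 15 CPM at day 10 and 0.478, 0.541 and 0.144 CPM at day 20. The days did not overlap, and day 10 replicate 3 was the highest of its day. Nox1 was the gene of the 10 with the largest fall at day 10 (fold 0.151, log2 -2.73 ± 0.34, adjusted p = 0.00037). At day 20 against day 0 its log2 fold change was -7.28 ± 0.47 (adjusted p = 1.2e-08). Nox1 is X-linked, and Xist, the RNA of the inactive X chromosome, also differed by day, with 23.7 to 32.6 CPM of all counts at day 0, 393 to 580 at day 10 and 0.914 to 1.28 at day 20. The Y-linked genes Eif2s3y, Ddx3y, Kdm5d and Uty averaged 45.2, 23.9, 13.5 and 10.6 CPM of all counts at day 0. At day 10 they averaged 1.45, 1.24, 0.976 and 0.295 CPM, and at day 20 45.6, 45.3, 13.2 and 8.71 CPM. Sex-linked transcripts thus set day 10 apart from the other days, so sex and day 10 cannot be told apart for any of the 10 genes. The part of sex in the day differences was not tested.

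Duox2 had 41.9, 74.1 and 64.9 CPM at day 0, 27.6, 26.9 and 56.6 CPM at day 10 and 0.625, 0.928 and 0.504 CPM at day 20. Day 10 replicate 3 fell among the day 0 libraries, and the difference of day 10 from day 0 missed the threshold (log2 -0.71 ± 0.29, adjusted p = 0.063). Without that library it was -1.18 (adjusted p = 0.00059). Duox2 fell by 6.46 ± 0.4 on the log2 scale at day 20 against day 0 (adjusted p = 7.5e-09).

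Duoxa2 had 38.8, 29.8 and 29.5 CPM at day 0, 8.12, 5.42 and 28.7 CPM at day 10 and 0.11, 0.0774 and 0.324 CPM at day 20, the last from 3, 2 and 9 counts. Day 10 replicate 3 again lay just under the lowest day 0 library. The call at day 10 (log2 -1.23 ± 0.47, adjusted p = 0.048) was lost under 8 of 18 alternatives, among them DESeq2 (adjusted p = 0.17) and leaving out day 0 replicate 1 (0.077), day 10 replicate 1 (0.054) or day 10 replicate 2 (0.11). Without day 10 replicate 3 the log2 fold change was -2.30 (adjusted p = 4.4e-06). At day 20 against day 0 the log2 fold change was -7.53 ± 0.72 (adjusted p = 6.1e-07).

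Nos2 had 29.8, 64.7 and 60.4 CPM at day 0, 18.7, 18.5 and 24.6 CPM at day 10 and 0.625, 0.58 and 0.324 CPM at day 20. The days did not overlap. Against day 0, Nos2 had a log2 fold change of -1.33 ± 0.26 at day 10 (adjusted p = 0.004) and of -6.66 ± 0.37 at day 20 (adjusted p = 2.6e-09). Noxo1 had only 3.4, 2.57 and 2.83 CPM at day 0 and 2.24, 3.14 and 1.54 CPM at day 10, which overlapped (adjusted p = 0.42), and 0.662, 0.657 and 0.504 CPM at day 20. Noxo1 fell by 2.26 ± 0.37 on the log2 scale at day 20 against day 0 (adjusted p = 9.9e-05). Sham crypts held 84.1 ± 3.1 CPM of Noxo1 (SD, n = 2), but the intestinal files and those labelled liver were made and scaled separately.

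Gpx2 had 1679, 1245 and 1203 CPM at day 0, 699, 743 and 815 CPM at day 10 and 12.7, 7.89 and 8.57 CPM at day 20. It fell at day 10 (log2 -0.87 ± 0.22, adjusted p = 0.011), a call lost on total counts alone (adjusted p = 0.055), and at day 20 (log2 -7.15 ± 0.29, adjusted p = 2.3e-10), each against day 0. Its copy Gpx2-ps1 held 196 to 270 CPM at day 0, 98.8 to 111 CPM at day 10 and 1.31 to 2.1 CPM at day 20. Per kb, Gpx2 was 1.03, 1.01 and 1.06 of Gpx1 at day 0, 0.38, 0.355 and 0.486 at day 10 and at most 0.000991 at day 20.

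Gpx1 had 728, 551 and 507 CPM at day 0, 823, 936 and 751 CPM at day 10 and 5712, 5356 and 5527 CPM at day 20. The day 10 libraries lay above those of day 0 but missed the threshold (log2 0.49 ± 0.23, adjusted p = 0.094), which DESeq2 passed (adjusted p = 0.008). Gpx1 rose by a fold of 9.29 at day 20 against day 0 (log2 3.22 ± 0.25, adjusted p = 6.9e-08).

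Cat had 104, 87.1 and 85 CPM at day 0, 105, 111 and 140 CPM at day 10 and 4211, 4318 and 4327 CPM at day 20. Its rise at day 20 against day 0, by a fold of 46.6 (log2 5.54 ± 0.25, adjusted p = 4.8e-10), was the largest of the 10 genes, and at day 10 the difference was not called (log2 0.36 ± 0.21, adjusted p = 0.16) except by DESeq2 (0.39, adjusted p = 0.034).

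Sod1 had 559, 432 and 414 CPM at day 0, 387, 430 and 333 CPM at day 10 and 1889, 1896 and 1859 CPM at day 20. Sod2 had 54.2, 51.2 and 54.6 CPM at day 0, 50.7, 51 and 46.2 CPM at day 10 and 190, 207 and 205 CPM at day 20. Neither was called at day 10 (adjusted p = 0.24 and 0.49), and at day 20 against day 0 they rose by log2 2.01 ± 0.2 (adjusted p = 1.2e-06) and 1.91 ± 0.13 (adjusted p = 2.2e-08). Hepatocyte and intestinal markers, in CPM of all counts, moved with these days. The 8 hepatocyte markers summed to 730 to 1124 at day 0, 1035 to 4316 at day 10 and 82256 to 84724 at day 20. The 8 intestinal epithelium markers summed to 5190 to 5717, 3380 to 6195 and 33.7 to 41.6. The part of tissue content in the day differences was not tested. Against day 10 in place of day 0, the day 20 log2 fold changes ran from -6.30 ± 0.71 for Duoxa2 to 5.18 ± 0.25 for Cat, with the same 6 genes lower and the same 4 higher. Per kb at day 20, Gpx1 stood at 3839 ± 124, Cat at 1640 ± 25 and Sod1 at 474 ± 4.9 (SD, n = 3), and the other 7 genes at 20 ± 0.92 or less.

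Among 65 further redox genes on 5 lists, 61 were tested in the intestine. In crypts 21 rose and 12 fell after hepatectomy, where 19.2% of all genes rose and 18.3% fell, and the median log2 fold change was 0.06 on these lists and 0.01 over all genes. In IEC 27 rose and 11 fell, where 19.5% of all genes rose and 18.3% fell, with medians of 0.22 and 0.02. The difference between the effects was called for 24 of them, 9 positive and 15 negative, where 19.2% of all genes were called. With any 1 library left out fewer of them were called, and fewer of all genes as well.

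The counts of each list stand beside the 37.5% of all genes called in crypts and 37.8% in IEC, and the medians of all genes of 0.01 and 0.02. Of 14 tested oxidase partners and other oxidant sources, 4 rose and 7 fell in crypts (median -0.60), and 4 rose and 4 fell in IEC (-0.08). Maob, the mitochondrial monoamine oxidase, rose by 1.96 ± 0.066 in crypts and 1.47 ± 0.058 in IEC, and Xdh, the xanthine dehydrogenase gene, by 0.52 ± 0.056 and 0.78 ± 0.056 (log2, adjusted p at most 2.4e-05). Rac2, the blood cell Rac, fell by 1.21 ± 0.11 in crypts (adjusted p = 5.8e-06). Of 19 tested peroxidases, dismutases and thioredoxin system genes, 8 rose and 1 fell in crypts (0.11), and 8 rose and 4 fell in IEC (0.13). Selenop, the selenium transport protein, rose by 0.82 ± 0.04 in crypts and 1.46 ± 0.04 in IEC, and Gpx4, which removes lipid peroxides, by 0.89 ± 0.053 in IEC (adjusted p = 6.8e-08).

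The glutathione and NADPH supply list, with 10 genes, had 3 rises and 1 fall in crypts (median 0.27) and 6 rises and 1 fall in IEC (0.60). Ggt1, which cleaves extracellular glutathione, rose by log2 1.42 ± 0.049 in crypts and 1.71 ± 0.048 in IEC, and Idh1, a cytosolic source of NADPH, by 0.57 ± 0.042 and 1.32 ± 0.043. The Nrf2 pathway list, with 10 genes, had 4 rises and 1 fall in crypts (median 0.02), and 6 rises and 1 fall in IEC (0.31). Nfe2l2, which encodes Nrf2 itself, rose by 0.28 ± 0.042 in crypts (adjusted p = 0.00031) and 0.41 ± 0.042 in IEC (adjusted p = 9.7e-06), and the ferritin gene Fth1 by 0.51 ± 0.035 and 0.49 ± 0.035.

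Of 8 arginine and nitric oxide genes, 2 rose and 2 fell in crypts (median 0.25), and 3 rose and 1 fell in IEC (0.23). Arg2, the mitochondrial arginase that uses the substrate of Nos2, rose by 1.25 ± 0.041 in crypts (adjusted p = 8.4e-10) and 1.19 ± 0.041 in IEC (adjusted p = 6.2e-10) on the log2 scale. Ass1, an enzyme of the route from citrulline back to arginine, fell, with -1.00 ± 0.17 in crypts and -1.18 ± 0.21 in IEC (adjusted p at most 0.00075). Ddah1, which degrades inhibitors of nitric oxide synthase, fell by 1.54 ± 0.1 in crypts and rose by 0.33 ± 0.097 in IEC, and the difference of these effects was -1.87 ± 0.14 (adjusted p = 3.6e-06).

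**Figure D4:**
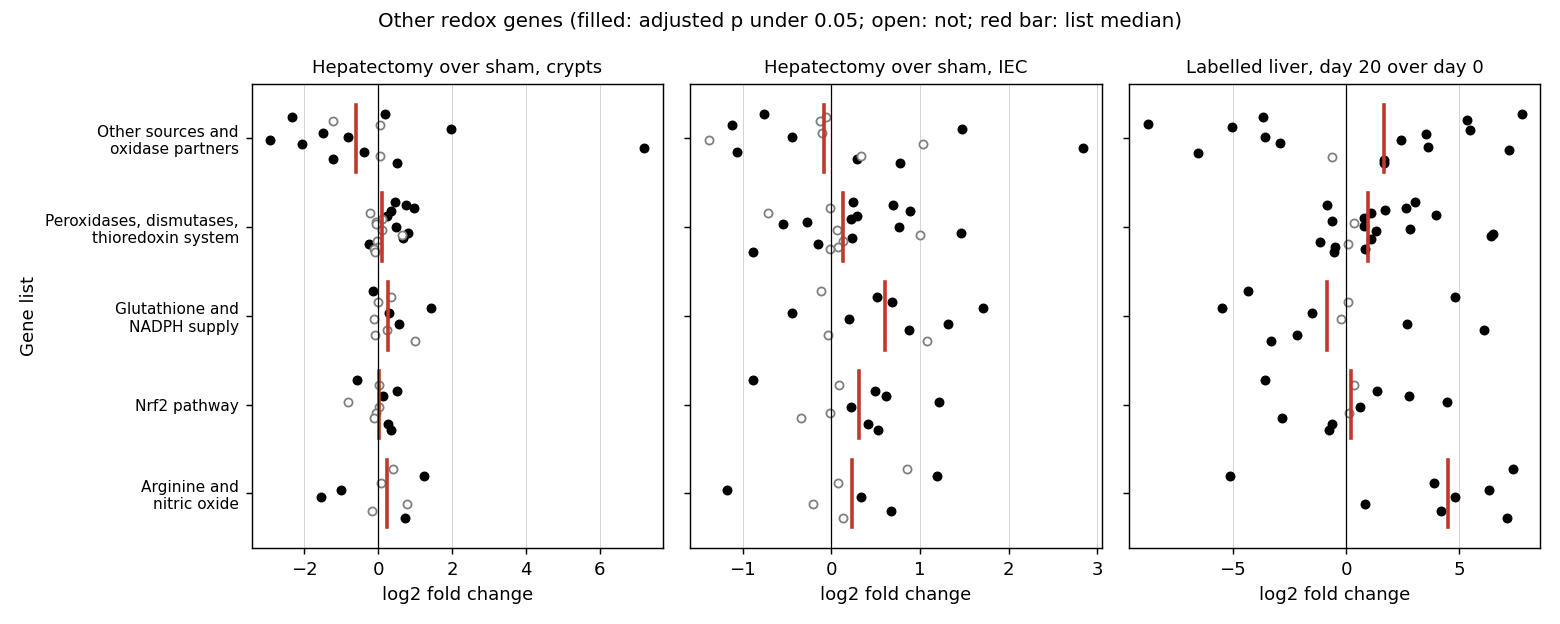
Log2 fold change of each tested gene on the 5 lists of further redox genes, with 1 point per gene, filled where adjusted p is under 0.05, and a red bar at the median of each list. The panels show hepatectomy over sham in crypts, hepatectomy over sham in IEC and day 20 over day 0 under the liver label, each with its own axis range. Glutathione and NADPH supply has the highest list median in IEC at 0.60, and arginine and nitric oxide handling has the highest at day 20 at 4.51.

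In the comparison of crypts with IEC, 15 of the 61 genes were higher and 21 lower in sham (median log2 -0.02, over all genes 0.02), and 12 higher and 26 lower after hepatectomy (-0.22 and 0.01), where 38.6% and 51.9% of all genes were called. Selenop was lower in crypts by -3.47 ± 0.043 in sham and -4.11 ± 0.044 after hepatectomy on the log2 scale. Under the liver label 64 of the 65 genes were tested. At day 10 against day 0, 13 rose and 20 fell (median -0.14, over all genes 0.10, with 43.6% of all genes called), and at day 20 against day 0, 36 rose and 21 fell (0.83 and -0.16, with 71.4% called). At day 20 against day 0 Noxa1 (-6.53 ± 0.29) and Cyba (-3.67 ± 0.17) fell, as Nox1 did (log2, adjusted p at most 1.2e-08), while Aox1, the aldehyde oxidase gene, rose by 7.76 ± 0.41 and Sod3, the extracellular dismutase, by 6.39 ± 0.28. Other oxidase genes were higher at day 20. Nox4 averaged 0.54 CPM at day 0 and 80.2 CPM at day 20, and Cybb 0.223 and 9.29 CPM. Of 16 tested oxidase partners and other oxidant sources, 9 rose and 6 fell in this comparison (median 1.68).

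Genes with the most similar pattern were ranked by the root mean square difference of log2(CPM + 1), each gene centred on its own mean, among genes averaging at least 5 CPM. Over the 8 intestinal libraries and 9563 genes, Ceacam10 was nearest to Nox1 (0.27), Clca3b and Itgam were nearest to Duox2 (0.13 and 0.16), Fasn was nearest to Nos2 (0.05) and Lrch1 to Gpx2 (0.07). Noxa1, the activator of Nox1, was among the 3 nearest to Gpx2 (0.10). Over the 9 libraries labelled liver and 10474 genes, H2-DMa was nearest to Nox1 (0.36), Acss1 to Duox2 (0.26), Sidt1 to Nos2 (0.22) and Muc13 to Gpx2 (0.12). This ranking describes likeness of levels over few libraries that share groups.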

How the data were processed

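Bulk RNA of 17 mouse libraries was compared in 7 groups. Per the submitters' processing notes the authors used STAR and Partek on mm10, with versions not given in the sources used here. Intestinal files, as deposited, hold expected counts (estimated counts, 36.7% of them not whole), which were rounded. For the libraries labelled liver, the deposited tables give whole counts by numeric identifier. Neither their counting program nor the strand counted in either table is stated in these sources. Of 24594 identifiers 24574 were matched to symbols, and the other 20 held 3.93 to 22.1% of a library's counts and were kept.

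Each table was fitted alone with edgeR 4.0.16 in R 4.3.3 (limma 3.58.1), with TMM scaling, filterByExpr (minimum count 10, minimum total 15), the quasi-likelihood F test, Benjamini-Hochberg adjustment over all genes and calls at an adjusted p under 0.05. There were 18207 and 16694 genes tested. All groups of a table shared 1 estimate of spread. The main edgeR fit was also run on simulated counts, for hepatectomy against sham in crypts and for day 10 against day 0 only. Few genes were changed there, whereas a far larger share of genes was called in the data. The simulated spread was that of the fit itself. For these reasons the run cannot decide whether the calls in the data are right. The other comparisons and the alternatives were not simulated. Alternatives were RLE scaling, total counts alone, DESeq2 1.42.0, no filter, a stricter filter, the replicate number as a block, only the groups compared, no unmatched identifiers, and each library left out. A lone library was then assumed to vary like the other groups.

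The 10 genes and the lists were chosen with earlier results of these data known. All 10 genes are reported in every comparison. The rule for further redox genes took up to 3 per list and comparison with the smallest p among those called, of which a part is printed. Noxa1 in crypts, Cyba in crypts and IEC, Cybb, Nox4 and the genes that share exons with members were added after their values were seen. Marker lists came from general knowledge. Replicate numbers were not treated as pairs in the main fit, and no sample was left out of it. The labels do not say whether crypts and IEC of an operation came from the same mice, so any such pairing was not modelled. Figures used matplotlib 3.10.9 in Python 3.11.15.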

Additional observations from a re-analysis of the deposited data

Results flagged for a closer look

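The hepatectomy effect differed between crypts and IEC, by the interaction term of edgeR's quasi-likelihood fit with Benjamini-Hochberg adjustment, in 9 of the 10 genes. As log2 fold change in crypts minus that in IEC, the difference was 1.60 for Nox1, 0.32 for Noxo1, 1.67 for Duox2, 1.25 for Duoxa2, 0.70 for Nos2, 0.41 for Gpx1 and 0.89 for Gpx2. It was -0.31 for Cat and -0.44 for Sod1. Among the further redox genes 24 of 61 differed in this way, and those with the smallest adjusted p among the named ones were Ddah1 (-1.87 ± 0.14), Idh1 (-0.75 ± 0.06), Selenop (-0.65 ± 0.056), Cyba (0.94 ± 0.083) and Rac2 (-1.50 ± 0.15). Over all genes 19.2% were called. Because the 10 genes and the lists were chosen with earlier results of these data known, setting these counts beside that share is not a test. Each group held 2 libraries.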

How the results depend on the processing

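Of all alternatives for single-gene results of the 10 genes, 1205 kept direction and side of the threshold, 29 lost the call, 19 gained it and 24 had the other sign, 21 of these with no call on either side. With libraries scaled by total counts alone the sign turned with a call for Sod2 in IEC after hepatectomy (-0.21) and for Sod1 (0.18) and Sod2 (0.26) in sham crypts against sham IEC, and without one for Sod2 in crypts against IEC after hepatectomy (0.14), all log2. The other turns were of values near 0. Sod2 after hepatectomy was 0.01 in crypts with RLE scaling, DESeq2, the stricter filter or only the groups compared, and -0.05 in IEC with no filter. Without 1 library it was -0.03 to 0.02 in crypts and -0.03 to 0.01 in IEC, with a difference of effects of -0.03 to 0.06. Gpx1 was 0.02 in IEC after hepatectomy with the stricter filter, and in sham crypts against sham IEC -0.00 with RLE scaling or DESeq2 and -0.02 with only the groups compared, and -0.02 to 0.06 without 1 library. Sod2 at day 10 was 0.07 with the stricter filter. Scaling by total counts moved the median of all genes to -0.31 and -0.19 for hepatectomy in crypts and IEC, to 0.37 for sham crypts against IEC, and to -1.07 for day 20 against day 0, where TMM gave 0.01, 0.02, 0.02 and -0.16. At day 10 against day 0 it called 2 of the 10 genes (4 with TMM), 12 further redox genes (33) and 3885 genes in all (7275), and the stricter filter called 4423 genes in all. Leaving out 1 library gave 5 to 8 of the 10 genes called for hepatectomy in crypts, the lowest without sham crypts replicate 1, and 14 to 20 further redox genes for the difference of effects (24 with all libraries). At day 10 against day 0, leaving out 1 library called 3 to 6 of the 10 genes and 5783 to 8580 genes in all, against 4 and 7275. The causes were not tested. Same-numbered libraries deviated together with correlations of -0.09 to 0.27, and the fit with the replicate block called 8 of the 10 genes in crypts, 8 in IEC and 5 at day 10, where it added Duox2 (log2 -0.72, adjusted p = 0.043) and changed no other call of the 10 genes. A fit of only the groups compared without day 10 replicate 3, added after the data were seen, called 6 of the 10 genes at day 10. Nox1 in hepatectomy IEC rests on 17 and 25 counts, which limits its precision, and with 2 libraries per group a log2 difference of Sod2 between -0.11 and 0.11 could not be told from 0.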
